A study of Mus musculus with 16 samples.

Results

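Cholesterol and fatty acids are made in the cytosol and endoplasmic reticulum by 2 enzyme chains that start from acetyl-CoA. A set of 32 genes of these chains and of their control was followed in mouse ES cells exposed to graded Nodal/Activin signaling, among 15967 genes with an annotated probe. The members are a list of symbols, drawn up with earlier results of these data known, which the p-values below do not take into account: 8 genes of the mevalonate pathway, 10 of sterol synthesis from squalene onward, 5 regulators, 8 of fatty acid synthesis and 1 sterol carrier. Of the 32 genes, 31 had a probe (39 probes in all, among 24606), and each gene is represented by its brightest probe. Acat2, the cytosolic acetoacetyl-CoA thiolase gene, had no probe under its symbol and is not analysed here.

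The cells were E14TG2a, an HPRT-deficient ES line, grown with serum and LIF and then moved to KSR medium, which holds a serum replacement and no LIF. All 16 cultures, controls included, began with a 6 h pretreatment at 10 µM of SB-431542 (SB), which blocks the type I receptors used by Activin and Nodal. They then received, over 18 h of further culture in KSR medium, 25 ng/ml Activin (high signaling), 10 µM SB (low signaling), DMSO carrier at 1 in 5000 (endogenous signaling) or nothing further (KSR). Each group holds 4 cultures of 1 cell line, at passages 20, 21, 23 and 24, and total RNA of each was hybridized to 1 Illumina MouseRef-8 array.

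In the sterol branch, acetyl-CoA is turned by way of mevalonate into squalene, which is closed to lanosterol and trimmed to cholesterol. In the fatty acid branch, ATP-citrate lyase supplies acetyl-CoA, acetyl-CoA carboxylase and fatty acid synthase build the chain, and elongases and desaturases finish it. Both branches are transcribed under SREBP factors. Scap carries the SREBP precursors out of the endoplasmic reticulum when sterols are scarce, the Insig proteins hold Scap back when sterols are plentiful, and ES cells, which divide fast and lay down much membrane, are known to transcribe many of these genes.

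Mean array intensity lay between 486 and 760 (background-subtracted, before scaling), lowest on the KSR array of passage 21, and 9816 to 10475 probes of an array were above background, here a signal over the 95th percentile of that array's 1187 chemosensory receptor probes (olfactory, vomeronasal and taste). The 10 ES cell markers measured, among them Pou5f1, Nanog and Sox2, were above background on all 16 arrays. Markers of other cell types moved with the groups and are given beside the results they move with. In such bulk samples a change in the number of cells of a type and a change in RNA per cell cannot be told apart.

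The pathway was transcribed nearly whole. Of the 31 genes measured, 27 were above background on all 16 arrays. Tm7sf2, a sterol reductase gene, was above background on 9 of 16. The probes of Fdft1 (squalene synthase), Sc5d (a sterol desaturase) and Srebf1 (SREBP-1) were above background on no array, so these 3 genes were included in every count below but their changes say nothing of a level. Values here are log2 intensity after normexp correction and quantile normalization, and levels of different probes are not compared.

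Most of the members varied little from array to array. Over the 16 arrays the narrowest range was that of Fdps, the farnesyl diphosphate synthase gene, with a lowest value of 12.89, a highest of 13.13 and so a range of 0.24. Hmgcs1, the gene of cytosolic HMG-CoA synthase at the entry to the pathway, ranged from 13.83 to 14.18, and Fasn, the fatty acid synthase gene, from 12.80 to 13.17. The widest ranges were those of Msmo1, a sterol methyl oxidase gene, from 12.11 to 12.96 (0.85), and of Srebf2, which encodes SREBP-2, from 9.15 to 10.00 (0.84). Scap ranged over 0.71 and Scd1, a stearoyl-CoA desaturase gene, over 0.68. The median residual SD of the 31 members about the treatment means was 0.14, against 0.14 for genes above background, and with passage removed as well it was 0.11 in both.

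The remaining members are given by their range over the 16 arrays. In the mevalonate pathway, Mvk (mevalonate kinase) lay between 7.48 and 8.03, Pmvk (phosphomevalonate kinase) between 8.61 and 8.94, and Mvd (the decarboxylase that follows) between 9.03 and 9.47. In sterol synthesis, Sqle lay between 12.02 and 12.32, Lss between 9.60 and 10.23, Hsd17b7 (a sterol ketone reductase) between 9.46 and 9.95, and Tm7sf2 ranged over 0.53 up to 7.53. Among the regulators, Insig1, which like Insig2 retains Scap, lay between 8.47 and 8.90. In fatty acid synthesis, Acly (ATP-citrate lyase) lay between 13.24 and 13.60, Acaca (acetyl-CoA carboxylase) between 10.79 and 11.26, and the desaturase genes Fads1 and Fads2 between 11.86 and 12.21 and between 8.17 and 8.62. None of these genes passed a test in the reported fits, nor did Fdps, Hmgcs1, Fasn or Msmo1, though Fads1 passed in passage comparisons with a floor of 16 or median scaling, and Acaca with dim probes left out.

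**Figure D1:**
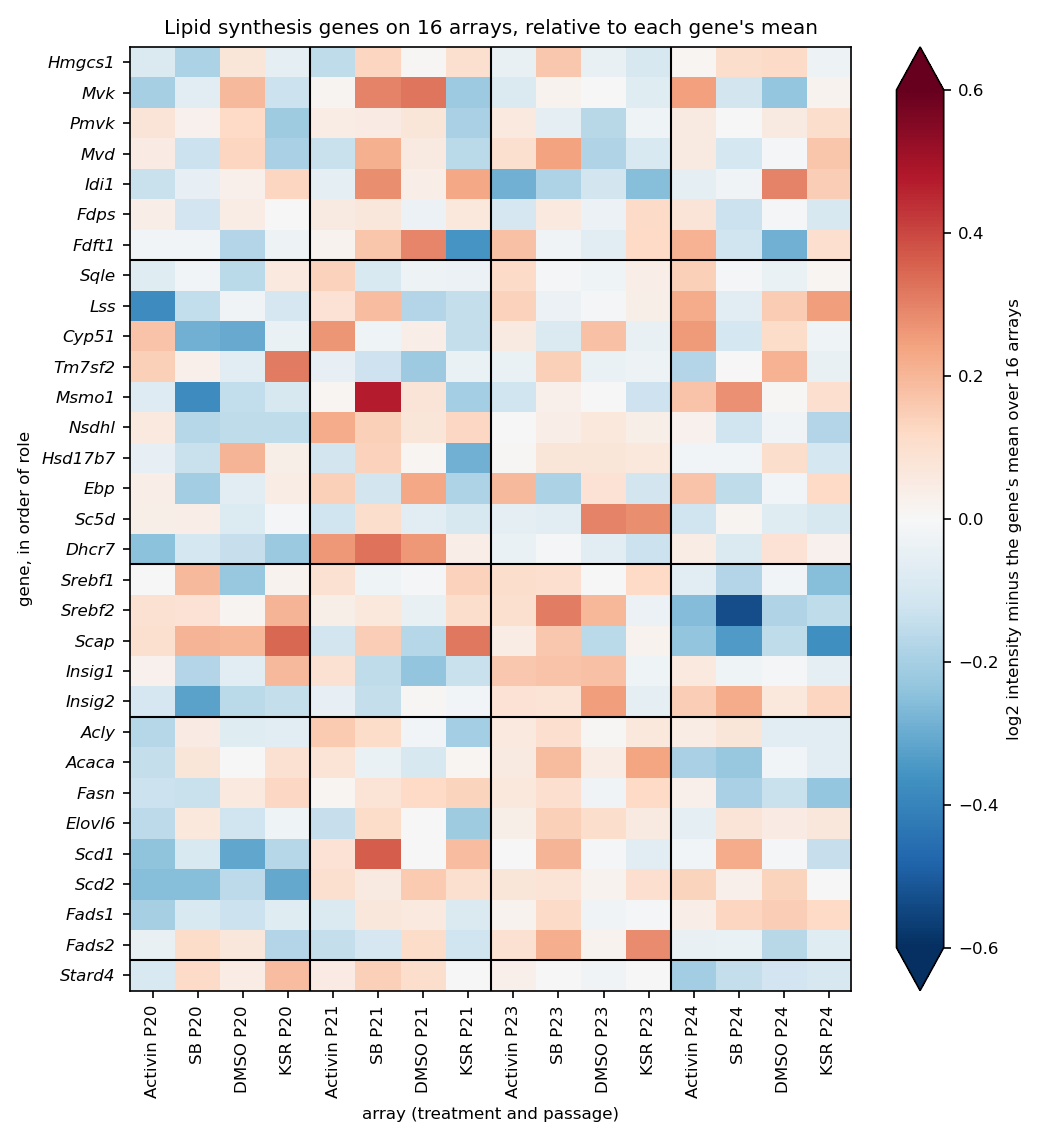
Log2 intensity of the 31 measured genes (rows, in order of role: mevalonate pathway, sterol synthesis, regulators, fatty acid synthesis, sterol carrier) on 16 arrays (columns, by passage and treatment), each relative to that gene's mean over the 16 arrays. Srebf2 and Scap are at their lowest in the passage 24 columns, and Scd2 in the passage 20 columns.

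The start-site windows of 4 genes are printed for reference: Hmgcs1, the only member window with a full match to the sterol element pattern, Srebf2, whose level differed most at passage 24, and Cyp51 and Ebp, which had the largest differences between Activin and SB. The sequences are from RefSeq on GRCm38.p6, 250 bases before to 50 after an annotated start, written in the direction of transcription. Capitals mark matches on either strand to the sterol regulatory element pattern TCACNCCAC or its shorter form TCACNCCA, to CCAAT (bound by NF-Y), to GGGCGG (the GC box of Sp1 factors) and to CACGTG (an E box).
Hmgcs1, chr13:119690101-119690400, + strand: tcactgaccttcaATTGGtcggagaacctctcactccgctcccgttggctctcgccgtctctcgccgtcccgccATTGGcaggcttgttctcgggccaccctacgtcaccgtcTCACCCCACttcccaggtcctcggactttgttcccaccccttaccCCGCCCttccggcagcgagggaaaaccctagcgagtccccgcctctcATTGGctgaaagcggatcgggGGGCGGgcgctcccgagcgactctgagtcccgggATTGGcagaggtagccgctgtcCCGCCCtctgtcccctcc
Srebf2, chr15:82147019-82147318, + strand: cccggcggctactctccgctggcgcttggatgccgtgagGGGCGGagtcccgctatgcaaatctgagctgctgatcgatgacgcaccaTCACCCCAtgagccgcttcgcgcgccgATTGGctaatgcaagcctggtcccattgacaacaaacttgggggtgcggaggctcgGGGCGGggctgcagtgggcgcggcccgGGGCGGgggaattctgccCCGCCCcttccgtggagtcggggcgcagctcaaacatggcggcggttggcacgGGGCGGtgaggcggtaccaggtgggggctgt
Cyp51, chr5:4104648-4104947, - strand: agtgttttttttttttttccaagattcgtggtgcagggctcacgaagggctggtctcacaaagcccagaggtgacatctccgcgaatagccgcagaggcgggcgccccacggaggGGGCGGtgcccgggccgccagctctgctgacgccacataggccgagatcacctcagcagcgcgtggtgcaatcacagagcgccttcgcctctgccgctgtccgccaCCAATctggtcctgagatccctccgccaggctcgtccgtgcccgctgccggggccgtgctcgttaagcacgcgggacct
Ebp, chrX:8193463-8193762, - strand: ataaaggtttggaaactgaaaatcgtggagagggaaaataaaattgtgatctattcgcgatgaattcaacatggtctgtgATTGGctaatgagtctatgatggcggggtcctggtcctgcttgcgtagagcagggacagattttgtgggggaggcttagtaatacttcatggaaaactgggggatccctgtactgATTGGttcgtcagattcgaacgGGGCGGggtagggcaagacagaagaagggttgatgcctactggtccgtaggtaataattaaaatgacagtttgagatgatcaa

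Windows were found for 25 of the 32 genes, and the other 7 were Fdps, Fdft1, Sqle, Scd1, Scd2, Fads1 and Stard4. CCAAT was present in windows of 20 of 25 (80%), against 41.1% of 27025 genes with a window and 43.9% of the 6364 of these that were above background on the arrays. GGGCGG was present in 21 of 25 (84%), against 38.2% and 69.6%. CACGTG was present in 5 of 25 (20%; Hsd17b7, Sc5d, Dhcr7, Scap and Insig1), against 8.09% and 12%. TCACNCCAC was present in 1 of 25 (4%), against 1.44% and 1.43%, and its first base in the Hmgcs1 window is at position -137 from the start. The shorter pattern TCACNCCA, which lies within the longer and was added after the windows had been seen, was found in Hmgcs1, Msmo1 and Srebf2, 3 of 25 (12%), against 4.97% and 4.48%. A match is a run of letters and was not tested as a bound site.

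The question put by the treatments is whether 18 h of high or low Nodal/Activin signaling changed lipid synthesis transcripts. No member passed the test in any of the 4 comparisons of treatments. For DMSO against KSR, which asks what the carrier does, 0 of 31 members passed and 0 had an unadjusted p under 0.05, where 0% of all probes passed. For Activin against DMSO, 0 of 31 passed and 0 had an unadjusted p under 0.05, where 0.0203% of probes passed. For SB against DMSO, 0 passed and 2 had an unadjusted p under 0.05 (6.45%), where 0.309% of probes passed and 5.75% of probes and 7.55% of genes above background had an unadjusted p under 0.05. For Activin against SB, the ends of the signaling range, 0 passed and 3 had an unadjusted p under 0.05 (9.68%), where 0.898% of probes passed and 7.71% of probes and 12.2% of genes above background had an unadjusted p under 0.05. Neither share of members exceeded that of genes above background. The test was limma, two-sided, with Benjamini-Hochberg adjustment over all probes and a threshold of 0.05, and a block for passage left the count at 0 in each comparison.

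On the log2 scale used here the estimates bounded the treatment effects closely. The median log2 change of the members was 0.02 for DMSO against KSR, -0.0015 for Activin against DMSO, 0.0045 for SB against DMSO and -0.04 for Activin against SB, and over genes above background it was between -0.0053 and 0.00071. The 95% interval of every one of the 31 members lay within 1.5-fold in each of the 4 comparisons. Its widest reach was 1.36-fold for DMSO against KSR, 1.35-fold for Activin against DMSO, 1.39-fold for SB against DMSO and 1.43-fold for Activin against SB. For the 3 genes below background on all arrays such an interval bounds only the signal of a dim probe, whose changes the added offset of 50 compresses. The offset also compresses changes of dim members above background, such as Tm7sf2 and Mvk (median intensity before scaling 66.9 and 126). Their intervals thus bound a change in RNA less closely.

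**Figure D2:**
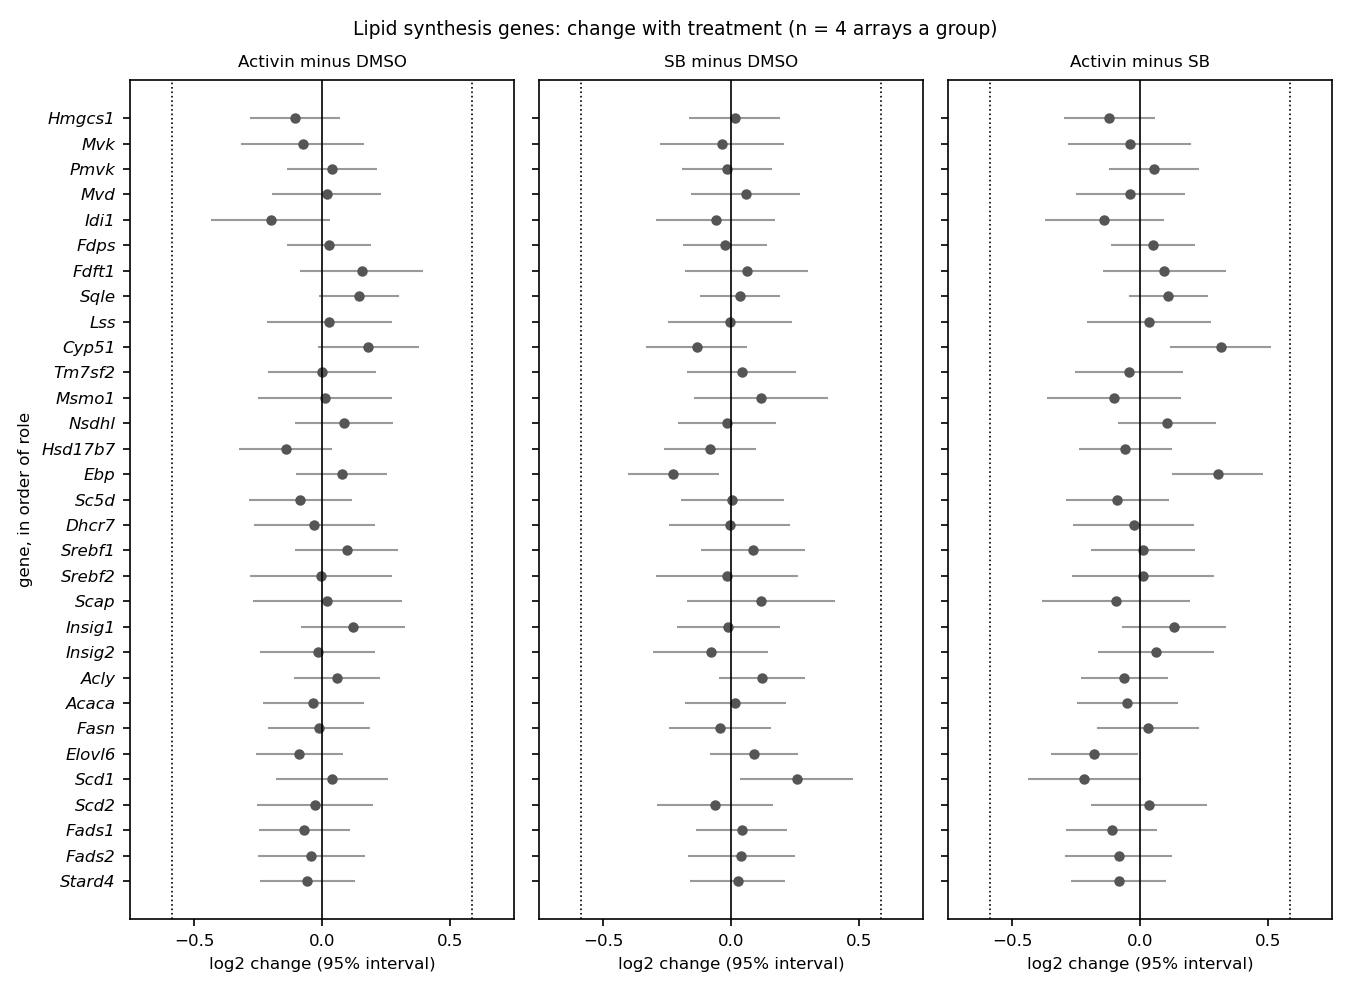
Log2 change (points) with its 95% interval (bars) of the 31 genes in 3 treatment comparisons (Activin or SB against the DMSO carrier, and Activin against SB), 4 arrays a group. Dotted lines mark 1.5-fold either way; every interval lies inside them, and no gene passed the test.

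The largest differences lay between Activin and SB and concerned 2 enzymes that act on sterols after lanosterol is formed, though neither passed. Ebp, the sterol isomerase gene, read 9.65, 9.75, 9.80 and 9.78 with Activin at passages 20, 21, 23 and 24, 9.40, 9.50, 9.41 and 9.45 with SB, and 9.54, 9.84, 9.69 and 9.59 with DMSO. All 4 Activin arrays and all 4 DMSO arrays were above all 4 SB arrays, but the KSR arrays, at 9.65, 9.42, 9.50 and 9.73, overlapped those with SB. The log2 difference of Activin minus SB was 0.30 (SE 0.09, 95% interval 0.13 to 0.48, adjusted p = 0.124, limma, n = 4 a group), and that of SB minus DMSO was -0.23 (SE 0.09, adjusted p = 0.649).

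Cyp51, the lanosterol demethylase gene, read 10.34, 10.43, 10.22 and 10.42 with Activin, 9.88, 10.14, 10.08 and 10.06 with SB, and 9.86, 10.21, 10.34 and 10.28 with DMSO. The Activin arrays were all above the SB arrays, and the DMSO arrays spread over both. The KSR arrays, at 10.13, 10.02, 10.12 and 10.14, were all below the Activin arrays and overlapped those with SB. The log2 difference of Activin minus SB was 0.31 (SE 0.10, 95% interval 0.12 to 0.51, adjusted p = 0.184, limma). In the fit blocked by passage the adjusted p was 0.0759 for Ebp and for Cyp51 alike.

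In the fatty acid branch Scd1 and Elovl6 had their highest group means with SB. Scd1 read 10.43, 10.88, 10.72 and 10.74 with SB, 10.20, 10.51, 10.50 and 10.51 with DMSO and 10.27, 10.60, 10.51 and 10.50 with Activin. SB was above DMSO at each of the 4 passages, by 0.21 to 0.36, though the groups overlapped because passage 20 was low in all of them. For Scd1 the controls differed too: DMSO minus KSR ran from -0.18 to 0.13, positive at 2 passages and negative at 2. The log2 change of SB minus DMSO was 0.26 (SE 0.11, 95% interval 0.04 to 0.48, adjusted p = 0.742, or 0.152 in the blocked fit). Elovl6, a fatty acid elongase gene, was at 11.40 ± 0.04 with SB and 11.22 ± 0.09 with Activin (mean ± SD, n = 4), with no overlap of these groups and an adjusted p of 0.617. In all, 3 members (Ebp, Cyp51 and Elovl6) had Activin and SB arrays that did not overlap, where 7.21% of genes above background did so. For SB against DMSO there were 2 (Ebp and Acly), where 4.31% of such genes did so. For Activin against DMSO there was 1, where 1.96% of such genes did so, and for DMSO against KSR 0, where 1.11% did. The 1 was the sterol gene Hsd17b7, lower with Activin than with DMSO at all 4 passages (log2 differences of -0.26 to -0.06). Its KSR arrays, at 9.78, 9.46, 9.81 and 9.64, overlapped its Activin arrays, at 9.70, 9.64, 9.76 and 9.73. DMSO was also above KSR for Hsd17b7 at all 4 passages, by 0.01 to 0.30.

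By role, the median log2 change with Activin against DMSO was 0.02 for the 7 mevalonate genes, 0.02 for the 10 sterol genes, 0.02 for the 5 regulators and -0.03 for the 8 fatty acid genes. With SB against DMSO the same medians were -0.02, -0.0055, -0.01 and 0.04. Idi1, the isopentenyl diphosphate isomerase gene, had the lowest member estimate with Activin, at -0.20 (adjusted p = 1.00), and Sqle, the squalene epoxidase gene, stood at 0.14 (adjusted p = 1.00). Srebf2, the SREBP gene above background, stood at -0.02 with SB against DMSO (95% interval -0.29 to 0.26).

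The same arrays recorded other changes with treatment. Of the 11 trophectoderm markers measured, 2 rose with SB against DMSO, Gata3 (log2 change 0.55) and Tfap2c (0.61), and the summed level of the 11 in the deposited normalized intensities was 3649 to 4445 with SB and 2244 to 2806 with Activin, without overlap. The list as a whole did not shift so: 6 of 11 had a positive estimate for SB against DMSO, with a median of 0.03, and Tfap2c was above background on 16 arrays and Gata3 on 4. Elf5, Hand1 and Tpbpa of that list were above background on no array. Tdgf1, an ES cell marker and co-receptor gene of Nodal, fell by 0.99 on the log2 scale with SB. The part of these markers in the values of Ebp, Cyp51 and Scd1 was not tested.

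Among related pathway genes, the treatments changed 1. Hacd2, a dehydratase gene of long-chain fatty acid elongation, was higher with Activin than with SB (log2 difference 0.46, SE 0.09, adjusted p = 0.00762), 1 of 22 measured genes of a further fatty acid synthesis list. None passed in any of the 4 comparisons among 8 measured genes of other sterol synthesis steps, 11 of sterol uptake and transport, 12 of SREBP processing, 7 of sterol efflux, 19 of glycerolipid synthesis and 21 of fatty acid oxidation.

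Passage is the other axis of the design, and here some members passed the test. The 4 arrays of a passage come from cultures of that passage split among treatments, so p-values measure the spread of arrays about treatment and passage means, and passage cannot be told apart from day of culture or anything else the 4 shared. Over the 4 passages 7 of 31 members passed the test for any difference (22.6%; limma F-test with treatment in the model), where 7.17% of all probes and 15.1% of genes above background passed. At an unadjusted p under 0.05 there were 14 of 31 members (45.2%), where 38.7% of genes above background were. The 7 were 3 of the 5 regulators (Srebf2, Scap and Insig2), 2 of the 8 fatty acid genes (Scd1 and Scd2), 1 of the 10 sterol genes (Dhcr7) and 1 of the 7 mevalonate genes (Idi1). When the 4 arrays of 1 treatment were left out, in turn, the count lay between 0 and 2, so the calls below depend on which arrays enter the fit.

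**Figure D3:**
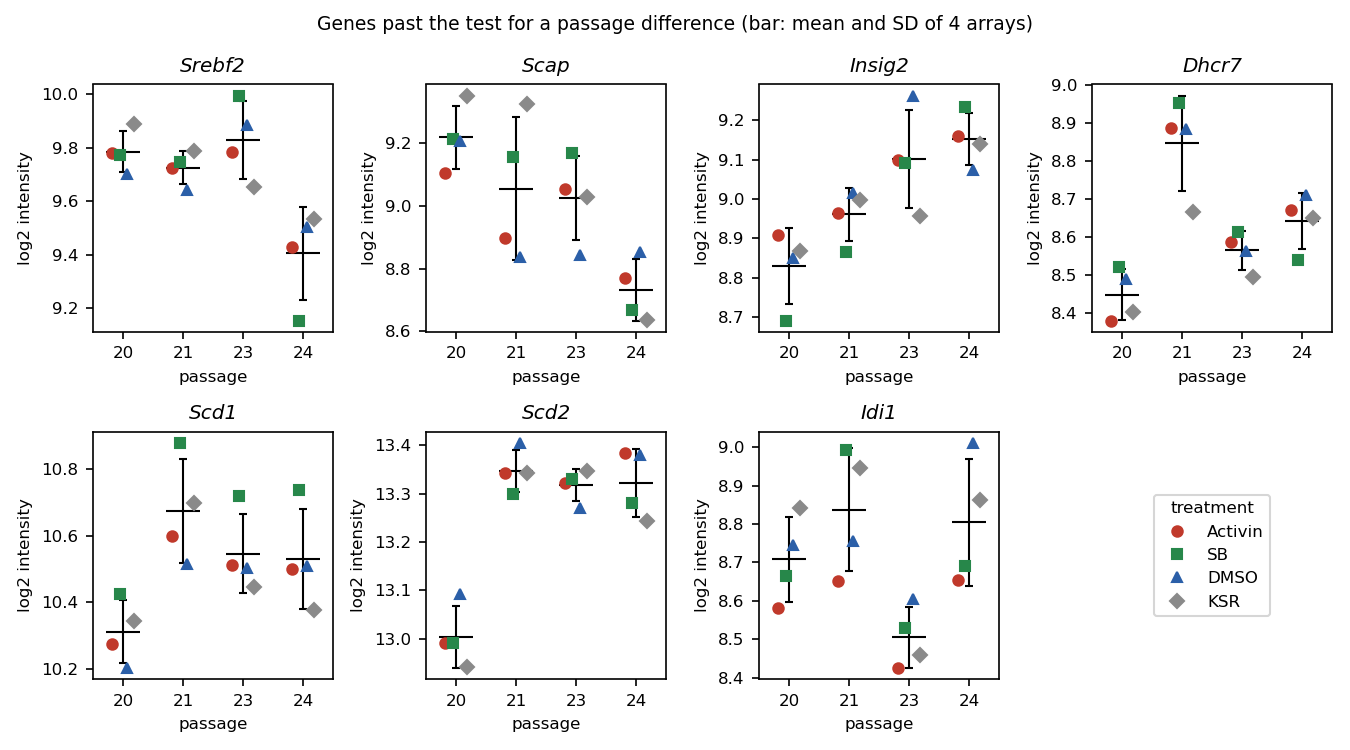
Log2 intensity of the 7 genes past the test for a passage difference, by passage, with 1 point per array colored by treatment and a bar for the mean and SD of the 4 arrays. The 4 passage 24 arrays of Srebf2 and the 4 passage 20 arrays of Scd2 lie below all other arrays of these genes.

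Srebf2 was lower at passage 24 in every treatment. Its arrays with Activin, SB, DMSO and KSR read 9.78, 9.77, 9.70 and 9.89 at passage 20 and 9.72, 9.75, 9.64 and 9.79 at passage 21. They read 9.79, 10.00, 9.88 and 9.65 at passage 23 and 9.43, 9.15, 9.50 and 9.53 at passage 24. The 4 arrays of passage 24 were below the other 12, which 1.72% of genes above background also showed. The comparison of passage 24 with the other passages was chosen because passage 24 was known to stand apart in these data. Its p-values do not take that choice into account. Against the other passages Srebf2 fell by 0.38 on the log2 scale (1.30-fold, SE 0.08, 95% interval -0.53 to -0.22, adjusted p = 0.00547, limma), and against passage 23 by 0.42 (SE 0.09, adjusted p = 0.0163). Without the 4 SB arrays the first change was -0.27 (adjusted p = 0.0816) and the second -0.29 (adjusted p = 0.186). The second was also lost without the Activin arrays (adjusted p = 0.0705) or the DMSO arrays (adjusted p = 0.0735).

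Scap, the escort of the SREBP precursors, was also lowest at passage 24. In the order Activin, SB, DMSO and KSR it read 9.11, 9.21, 9.21 and 9.35 at passage 20, 8.90, 9.16, 8.84 and 9.32 at passage 21, 9.05, 9.17, 8.84 and 9.03 at passage 23, and 8.77, 8.67, 8.85 and 8.64 at passage 24. The DMSO arrays of passages 21 and 23 fell in the range of passage 24, so the passages overlapped. Against the other passages Scap fell by 0.37 on the log2 scale (1.29-fold, SE 0.08, adjusted p = 0.00873). It also fell by 0.26 between passages 20 and 21 and passages 23 and 24 (SE 0.07, adjusted p = 0.0375). The first call was lost without the SB arrays (-0.32, adjusted p = 0.0942) and without the KSR arrays (-0.29, adjusted p = 0.0896), and the second when the arrays of any 1 treatment were left out (-0.31 to -0.18, adjusted p = 0.0593 to 0.236).

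These 2 regulators were the only members called lower at passage 24 against the others, where 2.25% of probes were called lower and 4.97% were called in either direction. For passage 24 against passage 23, Srebf2 was the 1 member called of 31, where 2.86% of probes were called. Members with an unadjusted p under 0.05 (limma) made up 32.3% for passage 24 against the others, beside 31.8% of genes above background. For passage 24 against passage 23 these shares were 22.6% and 26.2%. Stard4, which encodes a soluble sterol carrier, had all 4 arrays of passage 24 below the other 12 as well, at 10.65, 10.71, 10.74 and 10.76. It did not pass in the reported fit (log2 change -0.19, adjusted p = 0.0745, limma). With a floor of 16 or with dim probes left out it did (adjusted p = 0.0333 and 0.025).

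Insig2, which retains Scap in the endoplasmic reticulum, moved the other way. In the order Activin, SB, DMSO and KSR it read 8.91, 8.69, 8.85 and 8.87 at passage 20, 8.96, 8.87, 9.02 and 9.00 at passage 21, 9.10, 9.09, 9.26 and 8.96 at passage 23, and 9.16, 9.23, 9.07 and 9.14 at passage 24. All 4 arrays of passage 24 were above all 8 of passages 20 and 21, a separation whose share over all genes was not counted. It rose by 0.23 on the log2 scale between passages 20 and 21 and passages 23 and 24 (1.17-fold, SE 0.06, adjusted p = 0.0229). Its probe of intermediate brightness gave 0.10 (adjusted p = 0.514) and its dimmest probe was above background on no array, so the rise rests on 1 probe. The call was lost without the Activin arrays (0.25, adjusted p = 0.0858), the SB arrays (0.18, adjusted p = 0.182) or the DMSO arrays (0.23, adjusted p = 0.0864). Scap and Insig2 were the 2 members called in this comparison (6.45%), where 3.8% of probes were called. Members with an unadjusted p under 0.05 (limma) made up 25.8%, against 27.1% of genes above background.

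Between passages 20 and 21, 3 members were called and all 3 rose (9.68%), where 0.882% of probes were called and 0.382% were called higher. At an unadjusted p under 0.05 the share of members (19.4%) was close to that of genes above background (19.2%). Dhcr7, the reductase gene of the last step to cholesterol, read 8.38, 8.52, 8.49 and 8.40 at passage 20 and 8.89, 8.95, 8.88 and 8.67 at passage 21. Passages 20 and 21 did not overlap, a separation whose share over all genes was not counted. The arrays of passages 23 and 24 lay between 8.50 and 8.71. The rise was 0.40 on the log2 scale (1.32-fold, SE 0.07, 95% interval 0.24 to 0.55, adjusted p = 0.0125).

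Both stearoyl-CoA desaturase genes measured were low at passage 20. Scd2 read 12.99, 12.99, 13.09 and 12.94 at passage 20 and 13.34, 13.30, 13.40 and 13.34 at passage 21. At passages 23 and 24 it stayed between 13.24 and 13.38, so the 4 arrays of passage 20 were below the other 12. The share of all genes set apart so at passage 20 was not counted. Scd2 rose by 0.34 from passage 20 to 21 (1.27-fold, SE 0.07, adjusted p = 0.0188). Scd1 read 10.27, 10.43, 10.20 and 10.34 at passage 20 and 10.60, 10.88, 10.51 and 10.70 at passage 21, a rise of 0.36 (1.28-fold, SE 0.07, adjusted p = 0.0188), and lay between 10.38 and 10.74 at passages 23 and 24. Each of these 3 genes was higher at passage 21 in all 4 treatments. With a normexp offset of 16 in place of 50 the changes were 0.44 for Dhcr7, 0.37 for Scd1 and 0.35 for Scd2 (adjusted p = 0.0576, 0.0731 and 0.0727). Leaving out the arrays of any 1 treatment also ended the calls of Scd1 and Scd2 (adjusted p = 0.0611 to 0.166 and 0.0936 to 0.118), and leaving out Activin, SB or DMSO that of Dhcr7 (0.118, 0.0863 and 0.0851).

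Idi1, the remaining gene past the F-test (adjusted p = 0.0444), was lowest at passage 23. It read 8.43, 8.53, 8.60 and 8.46 there and 8.65, 8.69, 9.01 and 8.86 at passage 24, without overlap, which was not counted over all genes. The log2 difference of passage 24 minus 23 was 0.30 (SE 0.08, adjusted p = 0.0533). That difference passed with dim probes left out or with probes averaged by gene (adjusted p = 0.0204 and 0.0472, limma). The F-test call was lost when the arrays of any 1 treatment were left out (adjusted p = 0.0918 to 0.218). Nsdhl, a sterol dehydrogenase gene, had all 4 arrays of passage 21 above the other 12, at 12.06, 11.99, 11.92 and 11.97. It did not pass in the reported fit (adjusted p = 0.0924 over the 4 passages). With a floor of 16, the deposited normalized intensities or dim probes left out it did (adjusted p = 0.0424, 0.043 and 0.0309). From passage 20 to 21 this probe of 3 rose by 0.25, and the others by 0.10 and 0.05 (adjusted p = 0.115, 0.678 and 0.872, limma). The share of all genes set apart so at passage 21 was not counted. Among the members that did not pass the F-test, Fasn, Acly and Hmgcs1 ranged over 0.37, 0.36 and 0.35 on all 16 arrays.

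**Figure D4:**
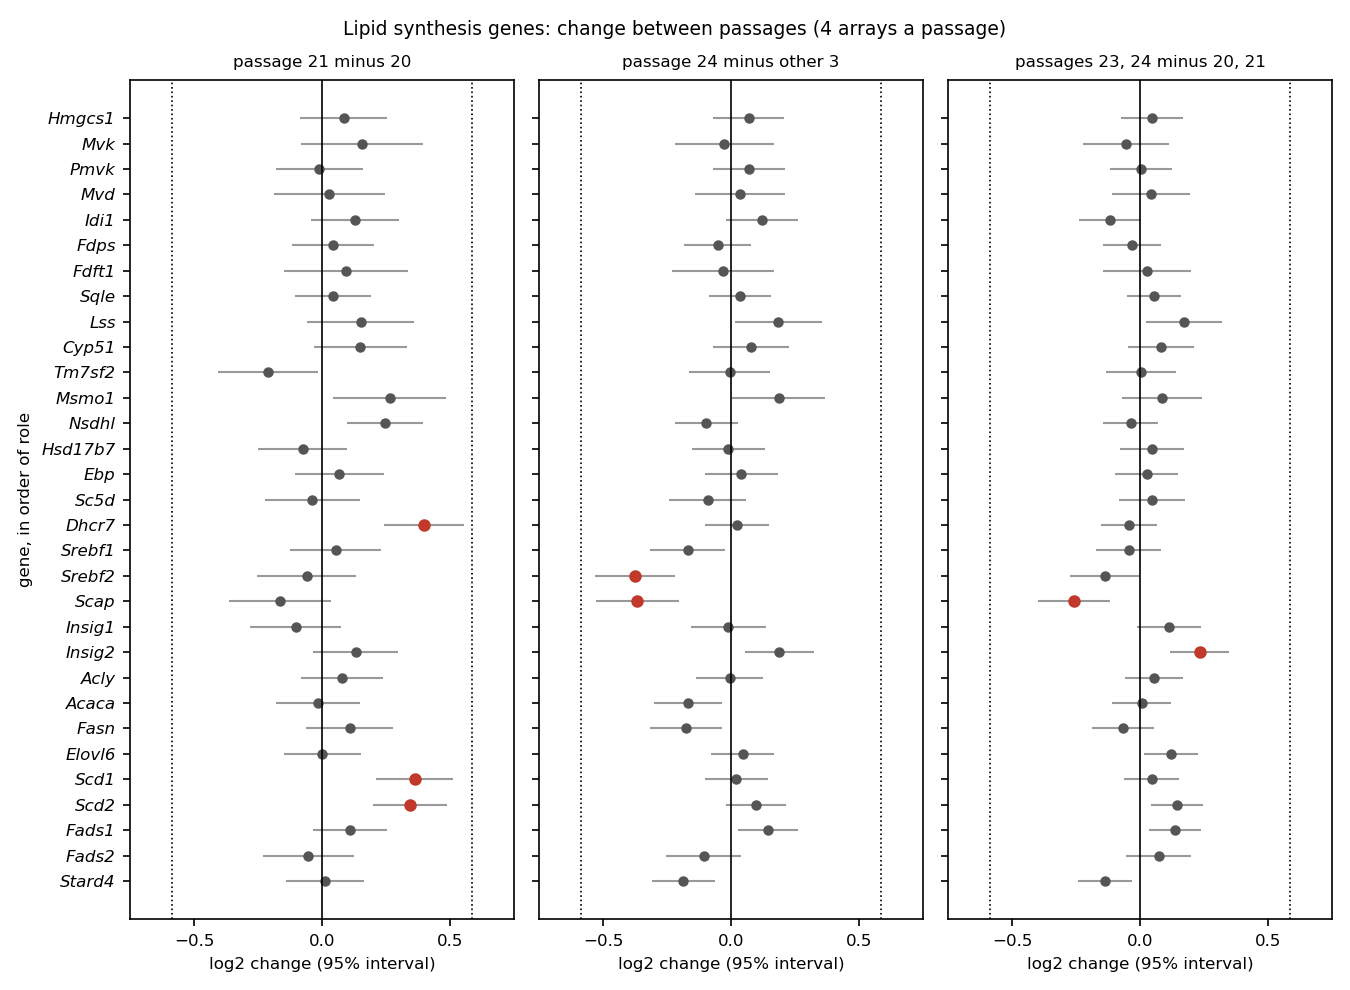
Log2 change (points) with its 95% interval (bars) of the 31 genes for passage 21 minus 20, passage 24 minus the other passages, and passages 23 and 24 minus 20 and 21, with treatment in the model. Red points passed the test (3, 2 and 2 genes), and dotted lines mark 1.5-fold either way.

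Cell type markers moved with passage as well, several of them by more than the members named above. Of 13 primitive endoderm markers measured, 8 passed the F-test for passage, and between passages 20 and 21 and passages 23 and 24 Dab2 rose 4.85-fold, Amn 2.49-fold, Gata6 2.32-fold and Col4a1 1.91-fold, while Gata4 fell (1.23-fold lower). In that comparison 8 of the 13 were called higher and 1 lower. Their summed level was 1126 to 1326 at passages 20 and 21 and 2714 to 3410 at passages 23 and 24, while Sox17, Sox7, Foxa2, Ttr and Afp were above background on no array, although Sox17, Sox7 and Ttr are among the 8 that passed. Of 13 fibroblast markers 4 passed, and their summed level was 1516 to 1726 at passage 20, 1196 to 1315 at passage 21, 1264 to 1425 at passage 23 and 960 to 1056 at passage 24. In that list 1 marker was called higher and 3 lower at passage 24 than at the others. Pdgfra, which the primitive endoderm list also holds, rose by 0.35, and Acta2 was 2.06-fold lower, with Col5a1 at -0.24 and Col1a1 at -0.27. Col5a1 was not among the 4 that passed the F-test. Loxl1 rose by 0.21 between passages 20 and 21 and passages 23 and 24, and 8 of 13 markers, Col1a1, Col1a2 and Col3a1 among them, were above background on no array. Of the 10 ES cell markers 5 passed (Nanog, Zfp42, Tdgf1, Tcl1 and Klf4), as did 2 of 11 trophectoderm markers (Tfap2c and Krt7) and 1 of 12 reference genes (Ywhaz). The part of these markers in the passage differences of Srebf2, Scap, Insig2, Dhcr7, Scd1, Scd2 and Idi1 was not tested.

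Some related lipid genes differed between passages too. The F-test called 1 of 11 genes of sterol uptake and transport, 1 of 12 of SREBP processing, 2 of 22 of other fatty acid synthesis, 1 of 19 of glycerolipid synthesis and 3 of 21 of fatty acid oxidation. It called 0 of 8 of other sterol synthesis and 0 of 7 of sterol efflux. The uptake gene was Vldlr, a lipoprotein receptor gene above background on 11 of 16 arrays, which was 2.69-fold higher at passage 24 than at the others (log2 change 1.43, SE 0.08, adjusted p = 6.28e-10). The processing gene was Pgrmc1, which encodes a heme-binding membrane protein and rose by 0.41 in the same comparison (SE 0.07, adjusted p = 0.00296). In fatty acid synthesis Mid1ip1, a regulator of acetyl-CoA carboxylase, rose by 0.41 (SE 0.07, adjusted p = 0.00116) and Acsl4, an acyl-CoA synthetase gene, by 0.30 at passage 24. Of the fatty acid oxidation genes 2 were higher and 1 lower at passage 24. Etfdh rose by 0.39 (adjusted p = 0.00401), while Acadvl, an acyl-CoA dehydrogenase gene, fell by 0.43 (SE 0.07, adjusted p = 0.00185). Acadl, above background on 4 arrays, rose by 0.28 (adjusted p = 0.0352) but did not pass the F-test. Acaa2, a mitochondrial thiolase gene, rose by 0.21 between passages 20 and 21 and passages 23 and 24, and Chka, a choline kinase gene of glycerolipid synthesis, fell by 0.25. Lbr, a sterol reductase gene, rose by 0.25 and Gramd1a, a sterol transporter gene, fell by 0.33 at passage 24, though neither passed the F-test.

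**Figure D5:**
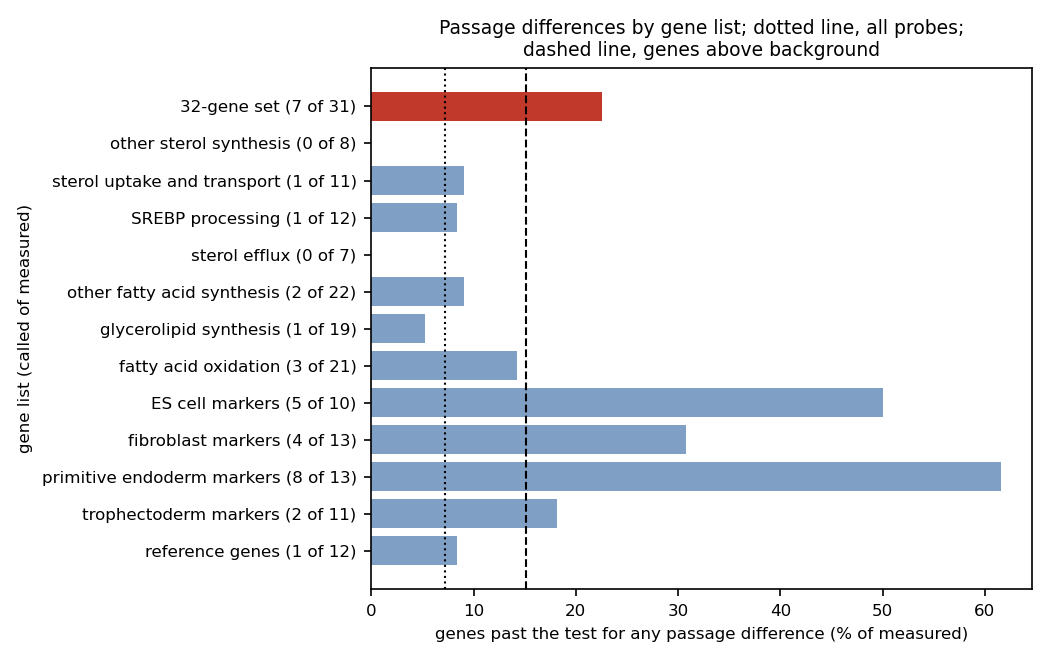
Share of measured genes of each list that passed the test for any passage difference (bars, percent), with the numbers called and measured in the labels. The dotted line marks all probes (7.17%) and the dashed line genes above background (15.1%); the bar of the synthesis genes stands at 22.6%, below those of the ES cell, fibroblast and primitive endoderm markers.

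The members did not all move together. Over the 16 arrays, with treatment means removed, the 27 members above background on all arrays formed 351 pairs with a median Pearson r of 0.14, against 0.00045 for pairs of 6542 such genes. The range was -0.88 (Idi1 with Fads2, a desaturase gene) to 0.82 (Scd1 with Scd2). Srebf2 and Scap had r = 0.74 and Scap and Insig2 r = -0.70, while Dhcr7 and Scd1 had r = 0.73. An r over 0.7 was found in 2.28% of the member pairs, against 1.52% of pairs of all such genes. The arrays share passages and normalization, so these values describe and were not tested. The genes most like the mean profile of the 27 members, of 6515 others, were Slc25a22 (r = 0.84), Rbm25 (0.83), Rasa2 (0.82), Lmf1 (0.82), Slf2 (0.81), Gcnt2 (0.80), Stard8 (0.80) and Nhlrc2 (0.79), each over 16 arrays. Among the members themselves Scd2 (0.69), Acly (0.66), Dhcr7 (0.66) and Lss, the lanosterol synthase gene (0.65), followed that mean most closely and Scap (-0.18) least. Each member is itself part of that mean, which raises its r, so these values cannot be set against those of the other genes.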

How the data were processed

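Total RNA of 16 cultures of E14TG2a ES cells was labelled as biotin cRNA and read on Illumina MouseRef-8 arrays with BeadStudio (version not given in the sources used here). In the deposited non-normalized intensity the authors had removed a background from every probe, and 26.8% to 28.7% of probes of an array lay below 0. The deposited normalized intensity followed the authors' cross-correlation normalization, with a floor of 40. The study's methods named a criterion of 1.5-fold against DMSO.

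Here the non-normalized intensities were corrected with normexp (saddle-point, offset 50), then quantile normalized across the 16 arrays and log2 transformed (R 4.3.3, limma 3.58.1). The offset compresses the changes of dim probes. All 24606 probes were fitted with lmFit and eBayes on all 16 arrays, with treatment alone for the treatment comparisons (12 residual degrees of freedom) and with treatment and passage for the passage comparisons (9). Tests were two-sided, and p-values were adjusted by Benjamini-Hochberg over all probes tested, and an adjusted p under 0.05 passed. Each adjusted p in the text is from these fits, and the scripts were tested on simulated data.

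Replicates 1 to 4 are passages 20, 21, 23 and 24 in every group, so the number marks a shared passage. With group means removed, arrays of the same number correlated with r of 0.0977 to 0.325 (median 0.216, 24 pairs) and arrays of different numbers with r of -0.238 to 0.0995 (72 pairs). All 16 arrays were nearest an array of their own number. Passage as a block was an alternative.

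Gene names came from the platform annotation: 20980 probes had 1 symbol, 1 had several and 3625 had none. The brightest probe by mean over all arrays stands for a gene. By rule, values on every array are given for members past the threshold, and genes of further lists may be named only where they passed or lead a list. Ebp, Cyp51, Elovl6, Hsd17b7, Nsdhl and Stard4, and the markers named at background, fall outside the rule and were singled out after their values were seen. Genes most like the members were the 8 with the highest r to their mean standardized profile. The members, the lists and the passage comparisons were chosen with earlier results of these data known. List genes without a probe of their symbol were not analysed here. Arrays have no depth; their number limits the precision. Alternatives were other background, offset, scaling, filter and probe rules, the deposited normalized intensities, and arrays left out.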

Additional observations from a re-analysis of the deposited data

Results flagged for a closer look

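In 14 of 124 sets of 4 arrays (31 genes in 4 treatments) 1 array stood apart from the other 3 of its treatment by Dixon's criterion, which chance gives in about 5% of sets. Most of these arrays were at passage 20. Low at passage 20 were Hmgcs1 with SB (13.8265, the others 14.12 to 14.18), Sqle with Activin (12.1056, the others 12.29 to 12.32) and with DMSO (12.0179, the others 12.14 to 12.15), Scd1 with DMSO (10.2030, the others 10.50 to 10.51), Scd2 with Activin and with SB (12.9905 in both, the others 13.28 to 13.38) and Srebf1 with DMSO (5.7603, a probe above background on no array). High at passage 20 were Scap with DMSO (9.2066, the others 8.84 to 8.85) and Tm7sf2 with KSR (7.5306, the others 7.17 to 7.19).

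Low at passage 24 were Srebf2 with Activin (9.4279, the others 9.72 to 9.79), Scap with SB (8.6694, the others 9.16 to 9.21) and Fasn with KSR (12.7982, the others 13.15 to 13.17). Sqle with SB was low at passage 21 (12.0893, the others 12.16 to 12.17), by less than 0.1. Sc5d with DMSO was high at passage 23 (6.5104, a probe above background on no array). Values are log2 intensity.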

How the results depend on the processing

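The treatment comparisons gave 0 members in each of 20 alternatives per comparison, among them passage as a replicate block (0 in all 4), arrays left out, the deposited normalized intensities and the criterion of 1.5-fold on them.

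The passage counts moved. For passages 23 and 24 against 20 and 21 (2 reported), an offset of 16 gave 0, median scaling 6 and the fit without the KSR array of passage 21, an alternative chosen after seeing the data, 1. For passage 21 against 20 (3 reported), an offset of 16 gave 0 and median scaling 1. For passage 24 against 23 (1 reported), a floor of 16, an offset of 16 and the deposited normalized intensities each gave 0, and testing probes above background on 4 or more arrays gave 3. For passage 24 against the others (2 reported), the floor, median scaling and the filter on dim probes each gave 4 and the deposited normalized intensities 1. For any passage difference (7 reported), an offset of 16 gave 2. Leaving out the 4 arrays of 1 treatment gave 0 to 1, 0 to 1, 0 to 1, 0 to 2 and 0 to 2 in these 5 comparisons; by construction those fits hold fewer arrays, and otherwise the cause was not tested. No called change reversed its sign in any alternative. Median scaling shifted the median over all probes by -0.12 for passages 23 and 24 and by -0.13 for passage 24, and over genes above background by -0.0093 and -0.03. Averaged over its 3 probes, Insig2 changed by 0.09 (adjusted p = 0.30).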
